A study of Mus musculus with 19 samples.

Results

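The genes described here are the guidance genes of the mouse, the ligands and receptors that steer growing axons and that epithelia also use: the semaphorins with their plexin and neuropilin receptors, the ephrins with the Eph receptors, the netrins with neogenin (Neo1), DCC and the UNC5 receptors, and the Slits with the Robo receptors. Membership was set by gene symbol, and the list was chosen with earlier results of these data known. The symbols covered 171 of 56605 array probes, for 71 gene names. Of these, 84 probes of 56 genes had a signal well above background on 4 or more of the 19 arrays, compared with 31848 probes of the whole array. The other 15 names had no such probe: Epha5, Epha6, Epha8, Epha10, Ntn3, Ntn5, Plxna4, its antisense transcripts Plxna4os1 and Plxna4os2, Plxnb3, Plxnc1, Robo3, Sema3a, Sema3e and Unc5c. The single probe of Dcc that passed lies on another chromosome than the gene, so Dcc was set aside and 55 genes were read. Of these, 13 were not well above background on every array. Sema3d was well above background on 8 arrays, Sema4f on 11, Robo2, Ntn4 and Sema4g on 13, Epha3 on 14 and the others on 15 or more, and each was well above background on at least 1 array of every group.

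Semaphorins are secreted or membrane-bound ligands that bind plexins, with neuropilins as co-receptors for the secreted class. Ephrins are bound to the cell surface and signal through Eph receptor tyrosine kinases on the neighbouring cell, while the ephrin-bearing cell also receives a signal. Netrins bind DCC, neogenin and the UNC5 receptors, and Slits bind Robo receptors. In the mammary gland, netrin-1 and neogenin keep the cap cells and the luminal cells of the end bud together, Slit2 acts through Robo1 on duct growth and branching, and EphA2 takes part in duct branching and the pair of ephrin-B2 and EphB4 in the patterning of epithelium and vessels.

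RNA came from CD24+CD29lo luminal cells (LCs) that had been sorted from the CD31- and CD45-negative cells of female C57Bl/6N mice, with 1 single-colour array for each mouse. All mice were ovariectomized, at 24 days of age by the sample labels. They received a pellet 10 days later, and the treatment lasted 21 days, up to 8 weeks of age. The 4 groups were C451A-ERα with 17β-estradiol and progesterone (E2+Pg, n = 5), wild-type with E2+Pg (n = 5), C451A-ERα with E2 (n = 5) and wild-type with E2 (n = 4). The pellets released 0.01 mg E2 over 60 days, alone or together with 1.5 mg progesterone over 60 days. C451A-ERα is a germline point mutation at the palmitoylation site of estrogen receptor α, the lipid anchor of its membrane-bound fraction, so all cells of these mice carry it and not LCs alone. The Esr1 probes read transcript level and not the mutated base, so the arrays cannot check the genotype. The sorted LCs hold both hormone-sensing and progenitor cells, and in such bulk samples fewer cells of a type and less RNA per cell cannot be told apart.

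Values are log2 of the quantile-normalized median signal of the brightest passing probe of a gene, in arbitrary units. The arrays had an upper-quartile signal between 248.5 and 490 (75th percentile), local backgrounds between 21 and 29, 26479 to 31266 probes well above background and no saturated spot. All 9 pan-luminal markers, such as Krt8 and Epcam, were measured. The summed signal of 10 hormone-sensing markers, such as Cited1, Prlr, Esr1 and Pgr, was 28870 to 91820 in C451A-ERα LCs and 35310 to 68800 in wild-type LCs under E2+Pg. Under E2 it was 108300 to 161300 in C451A-ERα LCs and 69070 to 152500 in wild-type LCs. The sum of 7 progenitor markers was 58740 to 88070 in C451A-ERα LCs and 40720 to 56640 in wild-type LCs under E2+Pg. Under E2 it was 23960 to 63710 in C451A-ERα LCs and 28040 to 54830 in wild-type LCs. Aldh1a3 was the brightest of the 7 in every E2+Pg mouse. Under E2+Pg the difference between C451A-ERα and wild-type LCs was positive for 4 markers and negative for 3 (median log2 fold change 0.02). None of them had an unadjusted p under 0.05. Markers of the epidermis (Krt1, Krt10, Krt15, Ivl and Lor, 5 of 6 listed) summed to 912.9 to 4708 in C451A-ERα LCs and 1552 to 16820 in wild-type LCs under E2+Pg, and to 1966 to 20090 in C451A-ERα LCs and 3267 to 47580 in wild-type LCs under E2. Wild-type E2 mouse L72 stood apart within its group, with a hormone-sensing sum of 152500 and an epidermis sum of 3267, against 69070 to 84070 and 31940 to 47580 in the other 3 mice. Over the guidance genes its values lay 0.09 below the mean of all mice on the log2 scale, and those of the other 3 mice lay 0.09 to 0.19 above it.

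Adding progesterone to E2 lowered Robo1, a receptor for Slits, in both genotypes. In C451A-ERα LCs it also raised netrin-1 (Ntn1), ephrin-A5 (Efna5) and Sema6a. In wild-type LCs the ephrin-B receptors Ephb2 and Ephb4 were higher by their brightest probes. All other guidance genes stayed short of a call, which was set at a Benjamini-Hochberg adjusted p under 0.05 over all 20686 genes tested together with a fold change above 1.5. The calls of Ephb2, Ephb4 and Sema6a were lost with the mean of the probes of a gene, and also with the slide as a block. The wild-type call of Robo1 was lost with the mean of the probes. A second probe of Ephb2 did not rise. In C451A-ERα LCs, 3 of 55 genes were higher (5.45%) and 1 was lower (1.82%) with E2+Pg than with E2, where 1.02% of all genes were higher and 1.43% lower. At an unadjusted p under 0.05 there were 12 guidance genes (21.8%), against 18.4% of all genes. In wild-type LCs, 2 were higher (3.64%) and 1 was lower (1.82%), where 0.59% of all genes were higher and 0.735% lower. Here 13 had an unadjusted p under 0.05 (23.6%), against 16.3% of all genes. The median log2 fold change of the 55 genes was 0.03 in C451A-ERα LCs and 0.02 in wild-type LCs, and that of all genes was 0.00 in C451A-ERα LCs and 0.04 in wild-type LCs. The 2 comparisons share no mouse.

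Between genotypes the receptor Robo2, the ephrins Efna4 and Efnb2 and the semaphorin Sema3c were lower in C451A-ERα LCs when both treatments were averaged, and no guidance gene was higher. These 4 of 55 genes (7.27%) stood beside 1.94% of all genes that were lower and 0.358% that were higher. Sema3f (log2 fold change -0.48 ± 0.10 (SE), adjusted p = 0.0218) and Sema6c (-0.52 ± 0.13 (SE), adjusted p = 0.0412) passed the adjusted p but not the fold. At an unadjusted p under 0.05 there were 18 guidance genes (32.7%), 14 of them lower, against 18.3% of all genes. Within one treatment no guidance gene was called. Under E2+Pg 17 of 55 had an unadjusted p under 0.05 (30.9%, against 18.3% of all genes), with a smallest adjusted p of 0.108, and over all genes 0% were called higher and 0.00483% lower. Under E2 9 of 55 did so (16.4%, against 13.6% of all genes), with a smallest adjusted p of 0.122, and over all genes 0.00967% were called higher and 0.0193% lower. Median log2 fold changes of the guidance genes were -0.06 under E2+Pg, -0.11 under E2 and -0.07 averaged, beside -0.03, 0.03 and 0.00 over all genes. Calls between genotypes depended on single mice, also when both treatments were averaged. There the call of Robo2 was lost in 3 of 19 runs that left out 1 mouse. That of Efna4 was lost in 14, that of Efnb2 in 15 and that of Sema3c in 15. Within one treatment, calls appeared only without certain mice. Without L72, 6 guidance genes were lower in C451A-ERα LCs under E2 (Efna5, Efnb2, Robo2, Sema3c, Slit2 and Unc5b), and without C451A-ERα E2+Pg mouse L18, 6 were lower under E2+Pg (Efna4, Plxnb1, Plxnd1, Robo2, Sema6c and Unc5a). Without wild-type E2+Pg mouse L21, 3 were (Efna4, Plxna2 and Robo2), and without L72 1 was (Robo2).

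Whether the progesterone response differed between the genotypes was tested as an interaction. No guidance gene and no gene of the array was called (0% higher and 0% lower). At an unadjusted p under 0.05 there were 6 guidance genes (10.9%, against 9.36% of all genes): Efna5, Ntn1, Efna4, Efnb2, Ntn4 and Unc5b, each with an adjusted p of 0.472. The calls of Ntn1, Efna5 and Sema6a in C451A-ERα LCs and of Ephb2 and Ephb4 in wild-type LCs are therefore not shown to belong to one genotype.

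**Figure D1:**
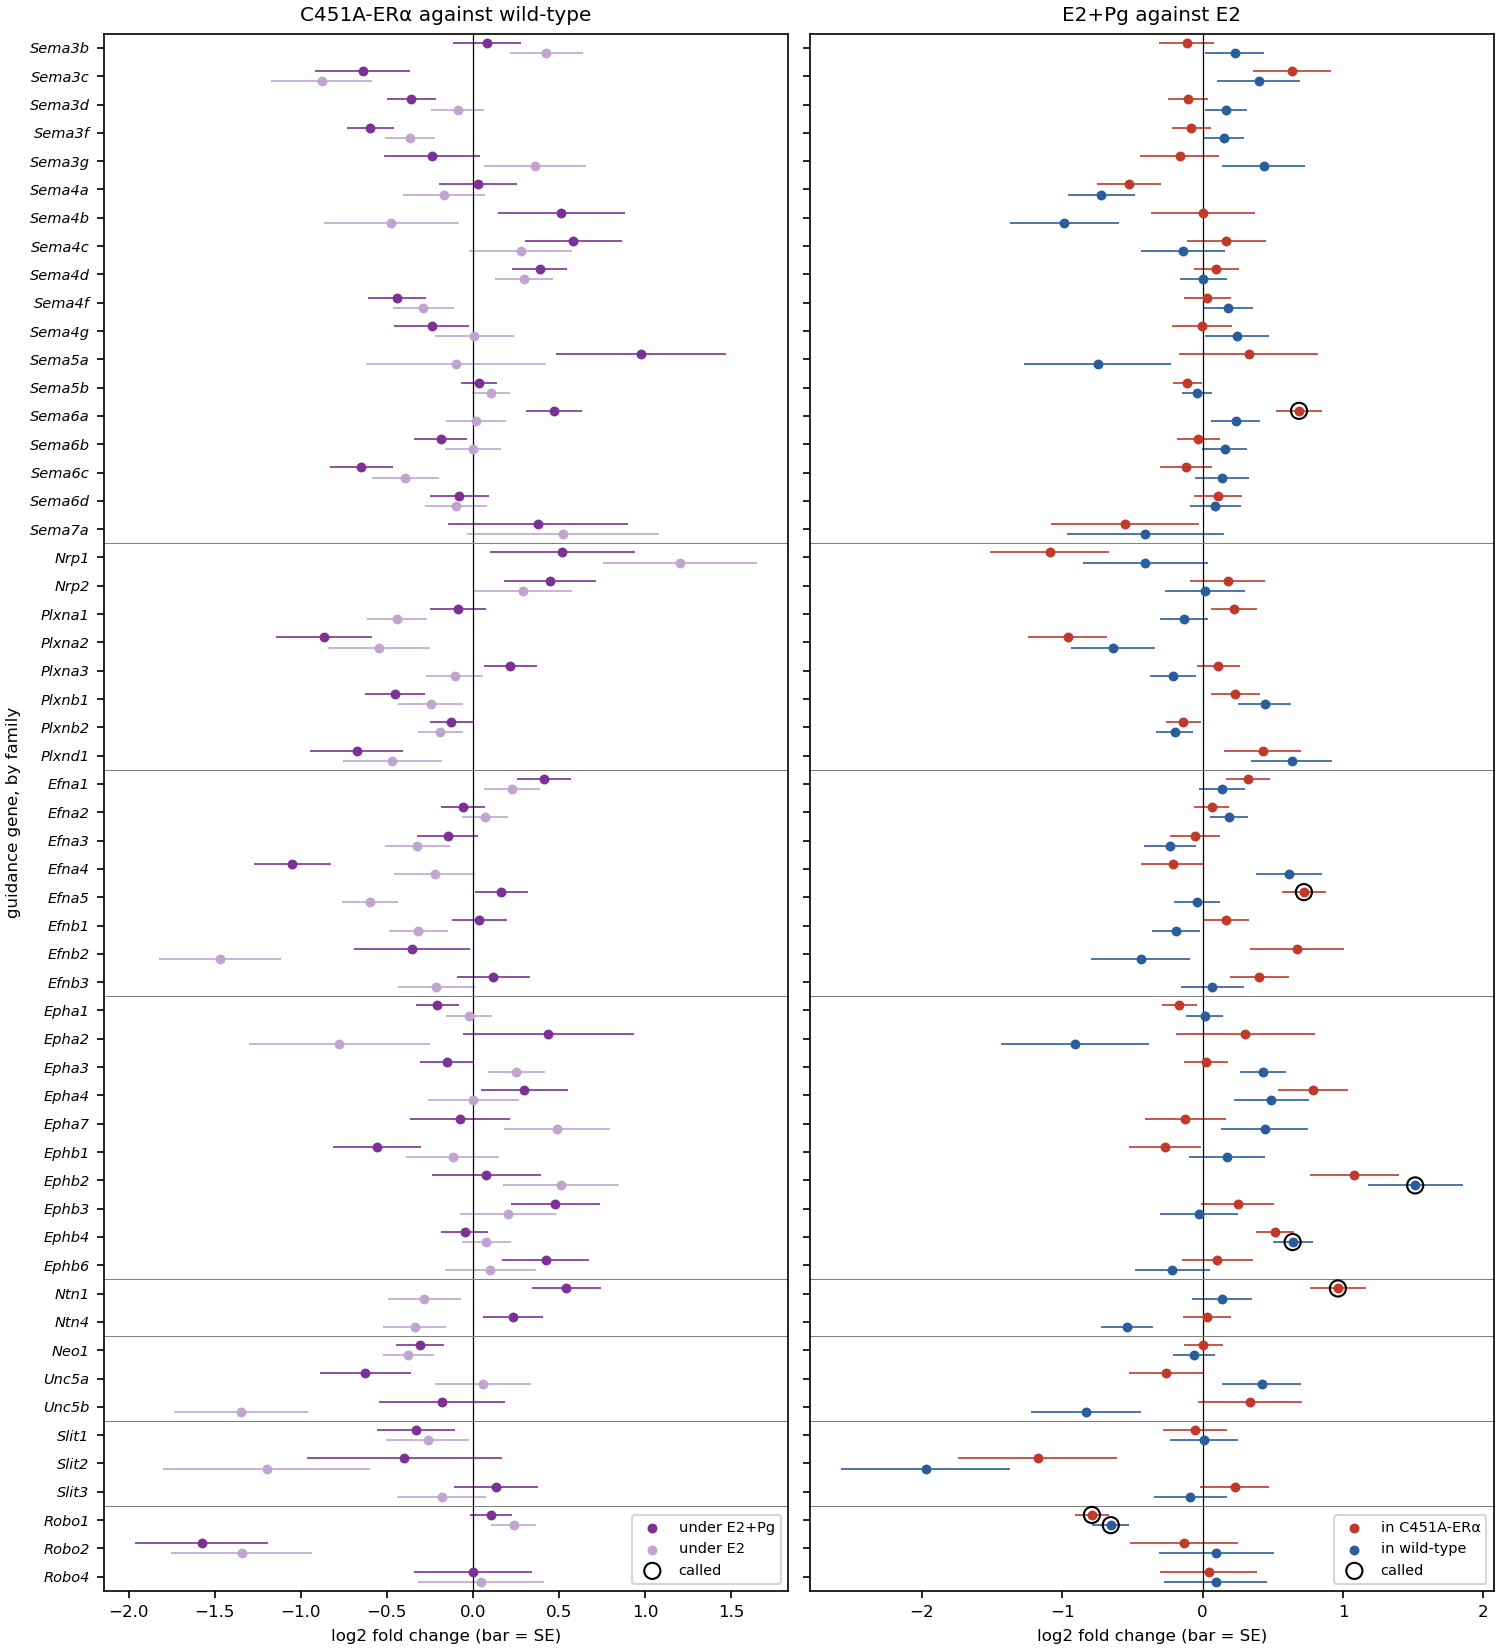
Log2 fold changes with their standard errors for the 55 guidance genes by family, left for C451A-ERα against wild-type under E2+Pg and under E2, right for E2+Pg against E2 in C451A-ERα and in wild-type LCs; open circles mark calls. The called genes are Sema6a, Efna5, Ntn1 and Robo1 in C451A-ERα LCs and Ephb2, Ephb4 and Robo1 in wild-type LCs, and none in the left panel.

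Robo1, which binds Slit ligands, was read by a probe at chr16:73046189-73046248 (mm9, plus strand). Under E2+Pg its log2 values were 8.14, 8.23, 8.46, 8.59 and 8.69 in C451A-ERα LCs and 8.17, 8.19, 8.33, 8.45 and 8.46 in wild-type LCs. Under E2 they were 9.09, 9.17, 9.24, 9.27 and 9.28 in C451A-ERα LCs and 8.72, 8.95, 8.98 and 9.24 in wild-type LCs. Every E2+Pg mouse lay below every E2 mouse of either genotype. The log2 fold change was -0.79 ± 0.12 (SE) in C451A-ERα LCs (1.73-fold lower, adjusted p = 0.00241) and -0.65 ± 0.13 in wild-type LCs (1.57-fold lower, adjusted p = 0.0188), with within-slide differences of -1.15 to -0.58 on 5 slides and -0.91 to -0.49 on 4 slides. The exact two-sided permutation p was 0.00794 for each, the smallest these groups allow. A second probe of Robo1, well above background on 12 arrays, gave -0.41 in C451A-ERα LCs and -0.45 in wild-type LCs. The call in C451A-ERα LCs held in all 19 runs that left out 1 mouse. The call in wild-type LCs was lost without L67 (adjusted p = 0.0615), L62 (0.0539) or L52 (0.0831), and without L72 the fold was under 1.5 (log2 fold change -0.57). It was also lost with the mean of the probes (adjusted p = 0.0756), and with array weights the fold was under 1.5. Between genotypes, Robo1 gave 0.10 under E2+Pg and 0.24 under E2, both not called. Of the 10 hormone-sensing markers, 4 were also called lower with E2+Pg in C451A-ERα LCs (Foxa1, Ly6a, Pgr and Prom1) and none in wild-type LCs. At an unadjusted p under 0.05, 8 were lower in C451A-ERα LCs, and 7 were lower and 1 higher in wild-type LCs. The medians over the list were -1.10 in C451A-ERα LCs and -0.73 in wild-type LCs. Between genotypes on average, Cited1 was called higher and Prom1 lower in C451A-ERα LCs. The part of these 10 markers in the results of Robo1, Ephb2 and Ephb4 was not tested.

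Robo2, another Slit receptor, was dim, with a probe at chr16:73894653-73894712 (mm9, minus strand) that was well above background in 1 of 5 C451A-ERα and 5 of 5 wild-type mice under E2+Pg, and in 3 of 5 C451A-ERα and 4 of 4 wild-type mice under E2. Its values were 4.90, 5.07, 5.15, 5.18 and 6.20 in C451A-ERα LCs and 6.22, 6.60, 6.93, 7.19 and 7.45 in wild-type LCs under E2+Pg, where the genotypes did not overlap. They were 4.71, 5.16, 5.40, 5.49 and 6.41 in C451A-ERα LCs and 5.31, 7.21, 7.21 and 7.39 in wild-type LCs under E2, where mouse L72 (5.31) lay among the C451A-ERα mice. Averaged over both treatments Robo2 was lower in C451A-ERα LCs (log2 fold change -1.46 ± 0.28 (SE), adjusted p = 0.0191), in 5 of 5 slides. Slide 3 had no wild-type E2 mouse and counts by E2+Pg alone. The size of the difference moved with the background correction, to -0.97 with normexp and -2.89 with Agilent's processed signal, and the call held with both. Under E2+Pg the difference was -1.57 ± 0.39 (adjusted p = 0.11), and under E2 -1.34 ± 0.41 (adjusted p = 0.154). Without L67, L50 or L52 the averaged call was lost (adjusted p = 0.0527 to 0.0612). A second, dimmer probe gave -0.63 averaged.

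Slit2, the secreted ligand of these receptors, differed widely between mice of one group. Under E2+Pg its values were 5.35, 5.38, 5.57, 5.70 and 6.46 in C451A-ERα LCs and 4.88, 5.75, 6.31, 6.34 and 7.15 in wild-type LCs. Under E2 they were 6.15, 6.54, 6.58, 6.70 and 8.36 in C451A-ERα LCs and 5.72, 8.52, 8.72 and 9.29 in wild-type LCs, and mouse L4 (8.36) stood above the other C451A-ERα mice and mouse L72 (5.72) below the other wild-type mice. The difference between E2+Pg and E2 was -1.18 ± 0.57 in C451A-ERα LCs (adjusted p = 0.279) and -1.97 ± 0.60 in wild-type LCs (adjusted p = 0.106), neither called. Without L72 that in wild-type LCs was -2.75 with an adjusted p of 0.00342. L72 was the lowest mouse of its group, so the p without it is no independent support. Slit3 gave 5.49, 5.69, 6.05, 6.23 and 6.29 in C451A-ERα LCs and 5.25, 5.53, 5.92, 6.01 and 6.39 in wild-type LCs under E2+Pg, and 5.12, 5.37, 5.70, 5.93 and 6.50 in C451A-ERα LCs and 5.73, 5.88, 5.91 and 6.10 in wild-type LCs under E2, and no difference was called, the one farthest from 0 between 2 groups being 0.23 for E2+Pg against E2 in C451A-ERα LCs. Slit1 and Robo4, the endothelial Robo, had no difference over 0.33 in size in any of the 5 comparisons and none was called.

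Several mice that stood out in Slit2 or Robo2 also stood out in the epidermis marker sum, which Krt15 led as the brightest of the 5 markers in every mouse. In L72, Krt1 (7.69) and Krt10 (10.15) were the highest of the wild-type E2 mice, although Krt15, Lor and Ivl were the lowest. Mouse L4 had an epidermis sum of 20090, against 1966 to 5037 in the other C451A-ERα E2 mice, and mouse L18, the C451A-ERα E2+Pg mouse with the highest Robo2 (6.20), had 4708, against 912.9 to 1181 in the other 4. Mouse L21, with the lowest Slit2 and Robo2 of the wild-type E2+Pg mice, had 1552, against 6915 to 16820 in the other 4. The single markers did not all follow the sum. In L4, Krt15 (14.26) was the highest of its group, Krt1 (5.35) was the lowest and Krt10 (8.57) lay between the others. In L21, Krt10 (8.66) was the highest of its group, although Krt15, Lor and Ivl were the lowest. In L18 all 5 markers were the highest of its group. The C451A-ERα E2+Pg mouse with the highest Slit2 (6.46), L63, had a sum of 1181 only. Averaged over both treatments, the differences of the 5 epidermis markers between C451A-ERα and wild-type LCs ran from -2.65 to -0.01, and Krt15 and Lor were called lower. Under E2+Pg alone, 2 of the 5 had a positive difference and 3 a negative one. Sums of other cell type markers under E2 are given beside these values. The sum of 10 basal and myoepithelial markers was 28670 to 43600 in C451A-ERα LCs and 40680 to 51710 in wild-type LCs, and that of the 9 pan-luminal markers was 562800 to 745300 in C451A-ERα LCs and 743000 to 821400 in wild-type LCs. The groups overlapped in both sums and no marker of either list was called. The part of these 3 marker lists in the values of Slit2, Robo2, Efnb2 and Unc5b was not tested.

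**Figure D2:**
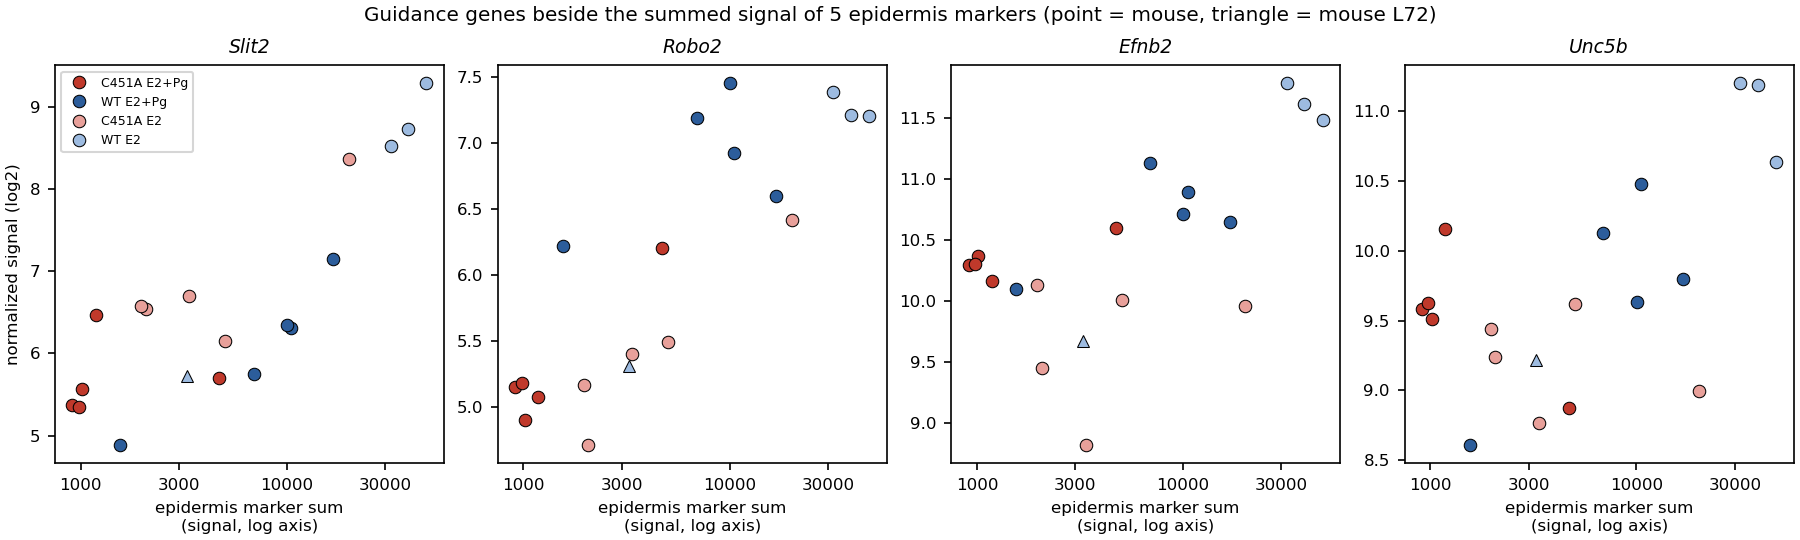
Log2 values of Slit2, Robo2, Efnb2 and Unc5b in each mouse against the summed signal of 5 epidermis markers (log axis); colours give the 4 groups and the triangle is mouse L72. In wild-type E2 LCs the 3 mice with sums of 31940 to 47580 lie at the high end for all 4 genes, and mouse L72 with 3267 lies below them. Krt15 is the brightest of the 5 markers in every mouse.

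Among the Eph receptors, Ephb2 and Ephb4, which bind ephrin-B ligands, were higher with E2+Pg in wild-type LCs. Ephb2 was read at chr4:136209527-136209586 (mm9, minus strand) and had values of 6.90, 7.84, 8.06, 8.48 and 8.58 in C451A-ERα LCs and 7.67, 7.74, 7.87, 7.95 and 8.22 in wild-type LCs under E2+Pg. Under E2 it had 6.24, 6.72, 6.84, 7.29 and 7.36 in C451A-ERα LCs and 5.85, 5.98, 6.26 and 7.42 in wild-type LCs. The wild-type groups did not overlap, whereas C451A-ERα mouse L63 (6.90) lay among the E2 mice. The log2 fold change was 1.08 ± 0.32 (SE) in C451A-ERα LCs, not called (adjusted p = 0.0727), and 1.51 ± 0.34 in wild-type LCs (2.86-fold higher, adjusted p = 0.0338), with exact permutation p of 0.0238 and 0.00794. A second probe of Ephb2, above background on all arrays, did not follow it, with -0.06 in C451A-ERα LCs and -0.26 in wild-type LCs. The mean of both probes gave 0.63 in wild-type LCs with an adjusted p of 0.109, and with the slide as a block the adjusted p was 0.0621. The call was lost in 6 of 19 runs without 1 mouse (adjusted p up to 0.135).

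Ephb4 was read at chr5:137815646-137815705 (mm9, plus strand). Its values were 9.29, 9.53, 9.57, 9.81 and 10.07 in C451A-ERα LCs and 9.52, 9.65, 9.71, 9.80 and 9.85 in wild-type LCs under E2+Pg, and 8.90, 9.02, 9.10, 9.33 and 9.36 in C451A-ERα LCs and 9.0, 9.0, 9.10 and 9.14 in wild-type LCs under E2, with no overlap between the wild-type groups. Its log2 fold change was 0.52 ± 0.13 (SE) in C451A-ERα LCs, where the fold was 1.43 and thus not called (adjusted p = 0.0459), and 0.64 ± 0.14 in wild-type LCs (1.56-fold higher, adjusted p = 0.0332). Of its other probes, one gave 0.38 and 0.65 in C451A-ERα and wild-type LCs, and the other 0.38 and 0.01. With the slide as a block the adjusted p in wild-type LCs was 0.106, and 7 of 19 runs without 1 mouse lost the call.

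Efnb2, the ephrin-B2 ligand of Ephb4, was read at chr8:8617465-8617524 (mm9, minus strand). It had 10.16, 10.29, 10.30, 10.37 and 10.60 in C451A-ERα LCs and 10.10, 10.64, 10.71, 10.90 and 11.14 in wild-type LCs under E2+Pg, and 8.81, 9.44, 9.96, 10.01 and 10.13 in C451A-ERα LCs and 9.67, 11.48, 11.62 and 11.79 in wild-type LCs under E2. The low wild-type E2 value of 9.67 was that of mouse L72, and the other 3 lay above every C451A-ERα mouse. Averaged over both treatments it was 1.88-fold lower in C451A-ERα LCs (log2 fold change -0.91 ± 0.24 (SE), adjusted p = 0.0479). The difference was -0.35 ± 0.33 under E2+Pg (adjusted p = 0.559) and -1.47 ± 0.36 under E2 (adjusted p = 0.122), and under E2 without L72 it was -1.96 with an adjusted p of 0.000384. Leaving out the lowest mouse raises the mean of a group and narrows its spread, so this p is no independent support. The averaged call was lost in 15 of 19 runs without 1 mouse (adjusted p up to 0.131) and under 6 of 10 other settings, the slide as a block among them (0.084).

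Efna4, an ephrin-A ligand, was read at chr3:89138180-89138239 (mm9, minus strand). Under E2+Pg it had 6.71, 6.75, 7.21, 7.25 and 7.67 in C451A-ERα LCs and 7.89, 8.01, 8.29, 8.31 and 8.33 in wild-type LCs, with no overlap between genotypes. Under E2 it had 6.71, 7.01, 7.18, 7.77 and 7.99 in C451A-ERα LCs and 7.33, 7.57, 7.63 and 7.68 in wild-type LCs, and the genotypes overlapped. The averaged difference was -0.63 ± 0.16 (1.55-fold lower in C451A-ERα LCs, adjusted p = 0.0405), in 5 of 5 slides (slide 3 by E2+Pg alone). It was -1.05 ± 0.22 under E2+Pg (adjusted p = 0.108, exact permutation p = 0.00794) and -0.22 ± 0.24 under E2 (adjusted p = 0.728). The averaged call was lost in 14 of 19 runs without 1 mouse (adjusted p up to 0.105) and under 4 of 10 other settings, the slide as a block among them (0.0597).

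Efna5, an ephrin-A ligand that also binds Ephb2, was read at chr17:62952429-62952488 (mm9, minus strand). Its values were 10.68, 10.81, 10.83, 10.96 and 10.98 in C451A-ERα LCs and 10.29, 10.67, 10.72, 10.79 and 10.97 in wild-type LCs under E2+Pg, and 9.77, 9.92, 10.20, 10.34 and 10.42 in C451A-ERα LCs and 10.36, 10.66, 10.91 and 10.97 in wild-type LCs under E2. The C451A-ERα E2 mice were low, and the C451A-ERα E2+Pg mice all lay above them. The log2 fold change was 0.72 ± 0.15 (SE) in C451A-ERα LCs (1.65-fold higher, adjusted p = 0.0169) in 5 of 5 slides, and -0.04 ± 0.16 in wild-type LCs (adjusted p = 0.923). The other 2 probes gave 0.75 and 0.41 in C451A-ERα LCs. Under E2 the genotype difference was -0.60 ± 0.16 (adjusted p = 0.127). Without mouse L27 the call was lost (adjusted p = 0.0587), as it was with only the groups compared (0.0537), and with array weights the fold was under 1.5.

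Of the pair Efna1 and Epha2, the ligand Efna1 had 11.46, 11.64, 11.71, 11.98 and 12.21 in C451A-ERα LCs and 10.92, 11.33, 11.51, 11.56 and 11.61 in wild-type LCs under E2+Pg, and 11.36, 11.38, 11.41, 11.47 and 11.77 in C451A-ERα LCs and 11.08, 11.15, 11.36 and 11.40 in wild-type LCs under E2. The highest C451A-ERα E2 value, 11.77, was mouse L58. The genotype difference was 0.41 ± 0.15 under E2+Pg (adjusted p = 0.206) and 0.23 ± 0.16 under E2 (adjusted p = 0.58), so neither was called. The receptor Epha2 had 12.38, 13.77, 13.95, 14.70 and 14.91 in C451A-ERα LCs and 12.69, 13.27, 13.40, 13.87 and 14.28 in wild-type LCs under E2+Pg, and 12.31, 12.56, 14.37, 14.40 and 14.55 in C451A-ERα LCs and 13.78, 14.50, 14.60 and 14.77 in wild-type LCs under E2. The C451A-ERα E2+Pg mice spread over 12.38 to 14.91, and no difference was called. Epha4, an Eph receptor that binds ephrins of both classes, gave 7.70, 7.84, 7.96, 8.21 and 8.74 in C451A-ERα LCs and 7.13, 7.52, 7.80, 8.0 and 8.51 in wild-type LCs under E2+Pg, and 7.12, 7.13, 7.28, 7.42 and 7.56 in C451A-ERα LCs and 6.67, 7.16, 7.62 and 7.76 in wild-type LCs under E2. The C451A-ERα groups did not overlap (difference 0.79 ± 0.25, adjusted p = 0.0914), and the wild-type groups did (0.49 ± 0.27, adjusted p = 0.365). The other ephrins (Efna2, Efna3, Efnb1 and Efnb3) and Eph receptors (Epha1, Epha3, Epha7, Ephb1, Ephb3 and Ephb6) had log2 fold changes of -0.56 to 0.49 in the 4 comparisons of 2 groups, and none was called.

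Netrin-1 (Ntn1), a secreted ligand, was read at chr11:68022986-68023045 (mm9, minus strand). Its values were 9.76, 10.13, 10.18, 10.38 and 10.71 in C451A-ERα LCs and 9.22, 9.54, 9.75, 9.86 and 10.08 in wild-type LCs under E2+Pg, and 8.77, 9.04, 9.50, 9.51 and 9.53 in C451A-ERα LCs and 9.19, 9.50, 9.68 and 9.82 in wild-type LCs under E2. All C451A-ERα E2+Pg mice lay above all C451A-ERα E2 mice, and the wild-type groups overlapped. The log2 fold change was 0.96 ± 0.20 (SE) in C451A-ERα LCs (1.95-fold higher, adjusted p = 0.0148, exact permutation p = 0.00794), in 5 of 5 slides, and 0.14 ± 0.21 in wild-type LCs (adjusted p = 0.761). The call was lost without L61 (adjusted p = 0.051) or L27 (0.0514), and with only the groups compared (0.062). The test of the difference between both responses gave 0.82 ± 0.29 (adjusted p = 0.472). All 7 progenitor markers had positive differences between E2+Pg and E2 in C451A-ERα LCs, where Sox10 was called, and 5 of 7 did in wild-type LCs, where Sox10 was called too. Their part in the results of Ntn1 and Efna5 was not tested.

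Neogenin (Neo1), the netrin receptor, had 8.95, 8.97, 9.06, 9.17 and 9.46 in C451A-ERα LCs and 9.33, 9.33, 9.35, 9.36 and 9.78 in wild-type LCs under E2+Pg, and 8.89, 8.95, 9.09, 9.32 and 9.34 in C451A-ERα LCs and 9.19, 9.50, 9.52 and 9.77 in wild-type LCs under E2. The value of 9.78 under E2+Pg was that of wild-type mouse L44. Neo1 gave -0.31 ± 0.14 under E2+Pg (adjusted p = 0.259) and -0.37 ± 0.15 under E2 (adjusted p = 0.271). On average it gave -0.34 ± 0.10 in 5 of 5 slides, slide 3 by E2+Pg alone (adjusted p = 0.0746), and was not called. Its second probe, above background on 15 arrays, gave 0.09 on average. Unc5b, a netrin receptor also known in vessels, had 8.87, 9.51, 9.58, 9.62 and 10.15 in C451A-ERα LCs and 8.61, 9.63, 9.80, 10.13 and 10.48 in wild-type LCs under E2+Pg, and 8.76, 8.99, 9.24, 9.44 and 9.62 in C451A-ERα LCs and 9.22, 10.63, 11.18 and 11.20 in wild-type LCs under E2, with L72 at 9.22. The genotype difference under E2 was -1.35 ± 0.39 (adjusted p = 0.141), and -1.79 without L72 (adjusted p = 0.00523). That run left out the lowest mouse of the group, so its p is no independent support. Under E2+Pg the genotype difference was -0.18 ± 0.37 (adjusted p = 0.8). Ntn4 gave 0.03 for E2+Pg against E2 in C451A-ERα LCs and -0.54 ± 0.18 in wild-type LCs, whose groups did not overlap (adjusted p = 0.146). Its probe was dim, and well above background in only 2 of 5 wild-type E2+Pg mice and in 4 of 4 wild-type E2 mice. Unc5a gave -0.62 ± 0.26 between genotypes under E2+Pg (adjusted p = 0.238). Neither was called.

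**Figure D3:**
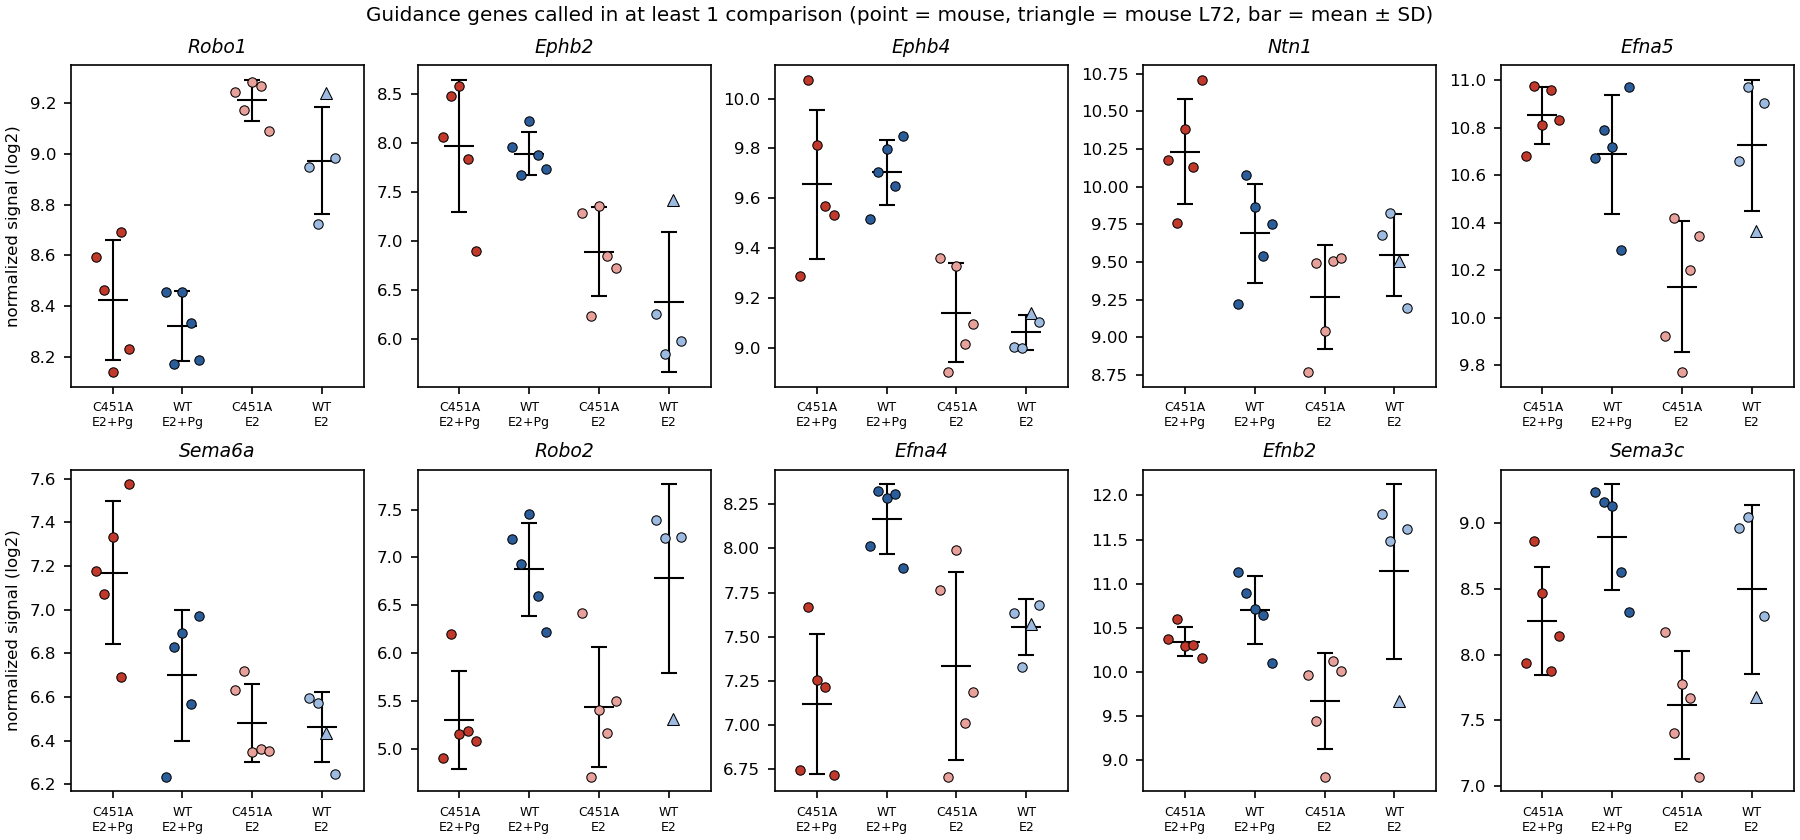
Log2 normalized signal of the 10 guidance genes called in at least 1 comparison, by group, with 1 point for each mouse, a triangle for mouse L72 and bars for the mean ± SD (n = 5, and 4 for wild-type E2). Robo1 in E2+Pg mice lies at 8.14 to 8.69 and in E2 mice at 8.72 to 9.28; in Robo2, Efnb2 and Sema3c mouse L72 lies below the other wild-type E2 mice.

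Among the semaphorins, the secreted ligand Sema3c was read at chr5:17235981-17236040 (mm9, plus strand). It had 7.88, 7.94, 8.14, 8.47 and 8.86 in C451A-ERα LCs and 8.32, 8.63, 9.13, 9.16 and 9.24 in wild-type LCs under E2+Pg, and 7.07, 7.41, 7.67, 7.78 and 8.17 in C451A-ERα LCs and 7.68, 8.30, 8.97 and 9.05 in wild-type LCs under E2. The genotypes overlapped under both treatments. The averaged difference was -0.76 ± 0.20 (1.69-fold lower in C451A-ERα LCs, adjusted p = 0.0466), in 5 of 5 slides (slide 3 by E2+Pg alone). It was -0.64 ± 0.28 under E2+Pg (adjusted p = 0.244) and -0.88 ± 0.29 under E2 (adjusted p = 0.189). The second probe gave -0.62 on average, with -0.09 under E2+Pg and -1.15 under E2. The averaged call was lost in 15 of 19 runs without 1 mouse (adjusted p up to 0.127) and under 4 of 10 other settings, among them the mean of its probes (0.108) and every probe by itself (0.0511). Sema3f, a secreted ligand of neuropilin-2, gave -0.59 ± 0.14 between genotypes under E2+Pg (adjusted p = 0.11) and -0.36 ± 0.15 under E2 (adjusted p = 0.276).

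Sema6a, a membrane-bound semaphorin that binds plexin-A receptors, had 6.69, 7.07, 7.18, 7.33 and 7.58 in C451A-ERα LCs and 6.24, 6.57, 6.83, 6.89 and 6.97 in wild-type LCs under E2+Pg, and 6.35, 6.35, 6.36, 6.63 and 6.72 in C451A-ERα LCs and 6.25, 6.43, 6.57 and 6.60 in wild-type LCs under E2. The C451A-ERα groups overlapped through 1 mouse of each, L53 (6.69) and L58 (6.72). The log2 fold change was 0.69 ± 0.16 (SE) in C451A-ERα LCs (1.61-fold higher, adjusted p = 0.0298) in 5 of 5 slides, and 0.24 ± 0.17 in wild-type LCs (adjusted p = 0.495). A second probe gave 0.41 and 0.45 in C451A-ERα and wild-type LCs. The call was lost in 6 of 19 runs without 1 mouse (adjusted p up to 0.0948) and under 5 of 11 other settings, among them the slide as a block (0.0536), the mean of the probes (0.0698) and only the groups compared (0.0914).

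Sema3b, a secreted semaphorin, gave 7.18, 7.20, 7.36, 7.83 and 7.96 in C451A-ERα LCs and 7.28, 7.34, 7.37, 7.45 and 7.67 in wild-type LCs under E2+Pg, and 7.01, 7.42, 7.50, 7.90 and 8.27 in C451A-ERα LCs and 7.16, 7.18, 7.21 and 7.22 in wild-type LCs under E2. The 4 wild-type E2 mice lay close together, and no difference was called. Sema4b had 6.49, 7.31, 7.42, 7.67 and 7.77 in C451A-ERα LCs and 5.95, 6.58, 6.76, 7.09 and 7.72 in wild-type LCs under E2+Pg, and 6.33, 6.51, 7.58, 8.01 and 8.23 in C451A-ERα LCs and 7.47, 7.83, 7.91 and 8.01 in wild-type LCs under E2, with 0.00 for E2+Pg against E2 in C451A-ERα LCs and -0.98 ± 0.39 in wild-type LCs (adjusted p = 0.22). Sema4c, a ligand of Plxnb2, had 15.32, 15.79, 15.92, 16.06 and 16.90 in C451A-ERα LCs and 14.91, 15.33, 15.38, 15.70 and 15.72 in wild-type LCs under E2+Pg. Under E2 it had 14.94, 15.50, 16.02, 16.16 and 16.53 in C451A-ERα LCs and 15.43, 15.57, 15.59 and 15.61 in wild-type LCs. Sema4d, a ligand of Plxnb1, had 10.29, 10.36, 10.52, 10.54 and 10.89 in C451A-ERα LCs and 9.89, 10.02, 10.12, 10.31 and 10.32 in wild-type LCs under E2+Pg, and 10.0, 10.16, 10.54, 10.65 and 10.77 in C451A-ERα LCs and 9.98, 10.02, 10.11 and 10.41 in wild-type LCs under E2. Their averaged genotype differences were 0.43 ± 0.20 for Sema4c (adjusted p = 0.271) and 0.34 ± 0.12 for Sema4d (adjusted p = 0.113), and neither was called. The other semaphorins read were Sema3d, Sema3g, Sema4a, Sema4f, Sema4g, Sema5a, Sema5b, Sema6b, Sema6c, Sema6d and Sema7a. None was called in a comparison of 2 groups, and the difference farthest from 0 was that of Sema5a between genotypes under E2+Pg, 0.98 ± 0.49 (adjusted p = 0.289). Sema4a gave -0.52 ± 0.23 in C451A-ERα LCs and -0.72 ± 0.24 in wild-type LCs for E2+Pg against E2 (adjusted p = 0.22 and 0.138), without overlap in wild-type LCs.

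Of the semaphorin receptors, Plxna2 had 5.96, 6.13, 6.14, 6.15 and 6.20 in C451A-ERα LCs and 5.85, 7.0, 7.0, 7.32 and 7.74 in wild-type LCs under E2+Pg, and 6.54, 6.97, 7.10, 7.28 and 7.51 in C451A-ERα LCs and 7.11, 7.37, 7.73 and 8.28 in wild-type LCs under E2. The 5 C451A-ERα E2+Pg mice were the lowest but for wild-type mouse L21 (5.85), and the C451A-ERα groups did not overlap. E2+Pg against E2 gave -0.96 ± 0.28 in C451A-ERα LCs (adjusted p = 0.0697) and -0.64 ± 0.30 in wild-type LCs (adjusted p = 0.298). Its genotype difference was -0.70 ± 0.20 on average (adjusted p = 0.0649), in 5 of 5 slides (slide 3 by E2+Pg alone). None of these was called. Nrp1, the co-receptor of secreted semaphorins, had 7.46, 7.69, 7.88, 8.78 and 9.07 in C451A-ERα LCs and 7.31, 7.34, 7.60, 7.89 and 8.14 in wild-type LCs under E2+Pg, and 8.0, 8.55, 9.42, 10.16 and 10.21 in C451A-ERα LCs and 7.26, 7.94, 8.11 and 8.95 in wild-type LCs under E2. C451A-ERα mice L58 and L76 reached 10.16 and 10.21. The genotype difference under E2 was 1.20 ± 0.45 (adjusted p = 0.236), and E2+Pg against E2 in C451A-ERα LCs gave -1.09 ± 0.42 (adjusted p = 0.169), with a second probe at 1.29 and -0.99. Plxnd1 had 7.46, 7.48, 7.72, 8.12 and 8.95 in C451A-ERα LCs and 8.26, 8.37, 8.73, 8.76 and 8.98 in wild-type LCs under E2+Pg, and 7.07, 7.14, 7.54, 7.83 and 8.01 in C451A-ERα LCs and 7.44, 8.01, 8.05 and 8.46 in wild-type LCs under E2, with a genotype difference of -0.57 ± 0.20 on average (adjusted p = 0.122). Plxnb2 had 12.78, 12.83, 12.85, 13.11 and 13.13 in C451A-ERα LCs and 12.96, 12.98, 13.07, 13.12 and 13.20 in wild-type LCs under E2+Pg, and 12.77, 12.86, 13.08, 13.28 and 13.39 in C451A-ERα LCs and 13.16, 13.20, 13.23 and 13.47 in wild-type LCs under E2, and no difference of it was over 0.20 in size. Plxna1, Plxna3, Plxnb1 and Nrp2 were read and not called, with Plxnb1 at -0.45 ± 0.18 between genotypes under E2+Pg (adjusted p = 0.219).

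**Figure D4:**
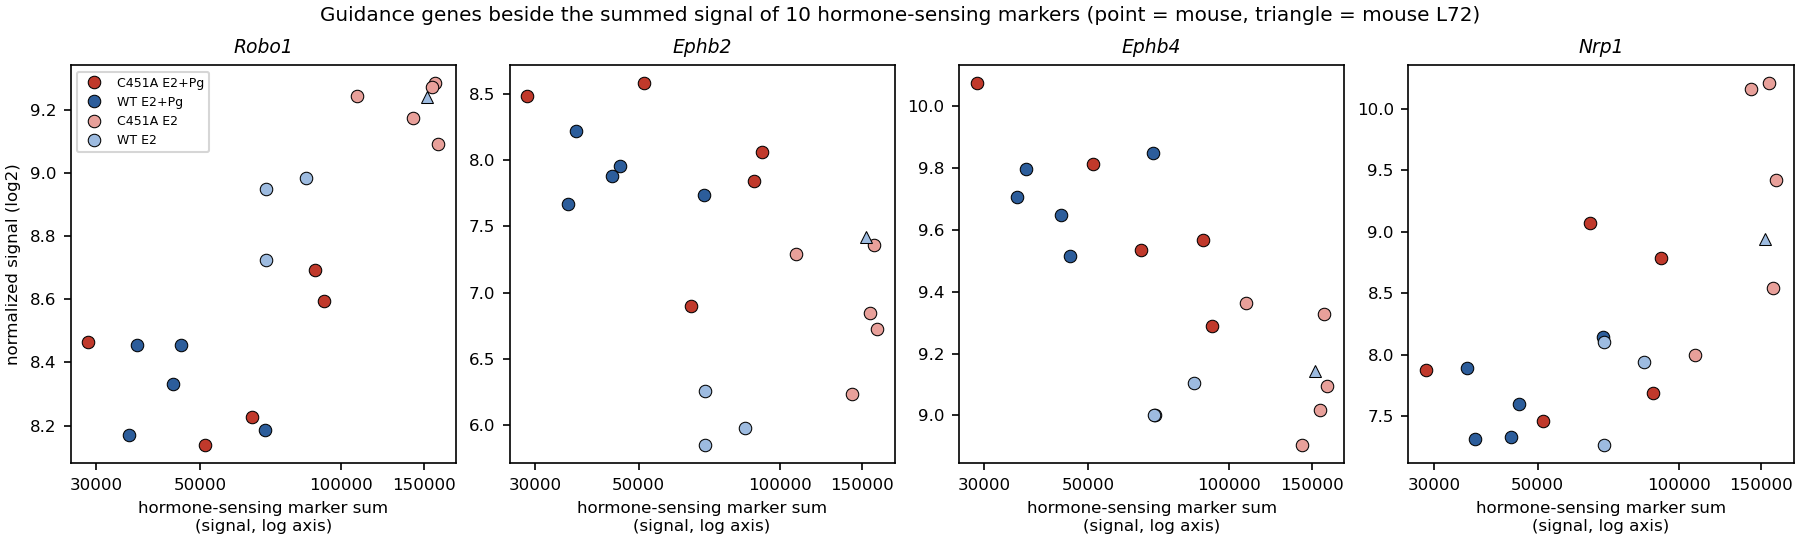
Log2 values of Robo1, Ephb2, Ephb4 and Nrp1 in each mouse against the summed signal of 10 hormone-sensing markers (log axis); colours give the 4 groups and the triangle is mouse L72. E2+Pg mice have sums of 28870 to 91820 and E2 mice 69070 to 161300, and Cited1 is the brightest of the 10 markers in every E2 mouse. Robo1 is lower and Ephb4 higher in the E2+Pg mice, and the 3 highest Nrp1 values are those of C451A-ERα E2 mice.

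By role, ligands and receptors were counted apart. Averaged over both treatments, 12 of 31 ligands and 12 of 24 receptors had a positive difference between C451A-ERα and wild-type LCs, with medians of -0.07 and -0.05, and the called genes were 3 ligands and 1 receptor. For E2+Pg against E2 in C451A-ERα LCs, 17 of 31 ligands and 15 of 24 receptors were positive (medians 0.03 and 0.07), with 3 ligands called higher and 1 receptor lower. In wild-type LCs, 18 of 31 ligands and 13 of 24 receptors were positive (medians 0.07 and 0.02), with 2 receptors called higher, 1 receptor lower and no ligand. Of 10 Eph receptors, 7 were positive in each genotype with E2+Pg (medians 0.18 in C451A-ERα LCs and 0.30 in wild-type LCs, beside 0.00 and 0.04 over all genes), and 3 in each had an unadjusted p under 0.05, all higher. Over all genes, 18.4% in C451A-ERα LCs and 16.3% in wild-type LCs had such a p, counting both directions.

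The downstream machinery of these receptors was read through 58 genes of guidance signaling. Between genotypes none was called under E2+Pg or under E2, where 11 and 9 of 58 had an unadjusted p under 0.05, beside 18.3% and 13.6% of all genes. On average 11 of 58 had an unadjusted p under 0.05, beside 18.3% of all genes, and 2 were called lower, beside 1.94% of all genes. These 2 were Flrt1, a partner of Robo and Unc5 receptors (log2 fold change -1.22 ± 0.31 (SE), adjusted p = 0.0405), and Srgap1, a GTPase-activating protein of the Slit pathway (-1.28 ± 0.29, adjusted p = 0.0256). For E2+Pg against E2 in C451A-ERα LCs, 20 of 58 had an unadjusted p under 0.05, beside 18.4% of all genes. Of the 58, 3 were called lower, beside 1.43% of all genes. They were Adam10, a protease that cleaves ephrins (-0.87 ± 0.12, adjusted p = 0.00149), the adaptor protein Grb14 (-1.57 ± 0.40, adjusted p = 0.0405) and Vav3, an exchange factor downstream of Eph receptors (-1.16 ± 0.17, adjusted p = 0.00149). In wild-type LCs 18 of 58 had an unadjusted p under 0.05, beside 16.3% of all genes, and 1 was called higher, beside 0.59% of all genes. It was Evl, an actin regulator of the Ena/VASP family (1.26 ± 0.27, adjusted p = 0.0273). In the interaction none was called and 7 of 58 had an unadjusted p under 0.05, beside 9.36% of all genes. For E2+Pg against E2 the median over the 58 genes was 0.15 in C451A-ERα LCs and 0.05 in wild-type LCs.

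The receptors for E2 and progesterone bind DNA elements, so the promoters of the guidance genes were searched for these letters on both strands: the full estrogen element (GGTCA, 3 bases, TGACC), the single arm (GGTCA), the progesterone receptor element (ACA, 3 bases, TGT) and a single arm (AGAACA). The full estrogen element holds the single arm on each strand, and AGAACA can overlap the progesterone element. The RefSeq promoters (GRCm38.p6, 250 bases before to 50 after the start) covered 60 of the 71 names with 76 promoters. No guidance promoter held the full estrogen element, which 0.07% of all 32851 promoters hold. The estrogen arm was in 25 of 76 (32.9%, against 40.5% of all promoters), the progesterone element in 4 (5.26%, against 6.85%) and the AGAACA arm in 8 (10.5%, against 19%). Of the 10 called genes, 8 had a promoter in the table, and 3 of these, Ephb2, Efna5 and Efnb2, held an estrogen arm before the start. None of the 8 held a progesterone element or arm. A match is a description of letters and not of a bound site.

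The 250 bases before the start of the 3 genes with a match are shown with that of Robo1, which was called in both genotypes and has no match, 5′ to 3′ on the gene's strand in lower case with the estrogen arm in capitals (TGACC is GGTCA on the other strand). They lie at chr4:136836013-136836262 (minus strand), chr17:62881318-62881567 (minus), chr8:8661243-8661492 (minus) and chr16:72662899-72663148 (plus) of GRCm38.p6.
Ephb2: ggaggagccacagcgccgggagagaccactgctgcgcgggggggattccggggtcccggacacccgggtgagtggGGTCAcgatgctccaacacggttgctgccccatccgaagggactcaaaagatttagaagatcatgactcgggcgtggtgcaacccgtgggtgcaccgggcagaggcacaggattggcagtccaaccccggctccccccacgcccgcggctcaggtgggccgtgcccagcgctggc
Efna5: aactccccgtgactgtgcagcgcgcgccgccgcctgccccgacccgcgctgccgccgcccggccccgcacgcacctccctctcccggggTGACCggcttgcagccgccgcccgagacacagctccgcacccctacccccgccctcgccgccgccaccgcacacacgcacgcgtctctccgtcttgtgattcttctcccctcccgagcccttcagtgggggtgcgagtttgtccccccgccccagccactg
Efnb2: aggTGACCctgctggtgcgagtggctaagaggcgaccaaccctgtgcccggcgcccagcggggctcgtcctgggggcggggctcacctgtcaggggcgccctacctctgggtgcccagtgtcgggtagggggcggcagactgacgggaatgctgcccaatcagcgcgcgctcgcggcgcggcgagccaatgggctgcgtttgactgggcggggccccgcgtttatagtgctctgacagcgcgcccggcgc
Robo1: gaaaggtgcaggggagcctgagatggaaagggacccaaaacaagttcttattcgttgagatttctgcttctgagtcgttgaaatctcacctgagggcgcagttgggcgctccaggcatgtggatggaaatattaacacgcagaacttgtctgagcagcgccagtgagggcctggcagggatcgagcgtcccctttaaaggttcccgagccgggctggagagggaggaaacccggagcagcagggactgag
In Ephb2 the arm lies 175 to 171 bases before the start, in Efna5 161 to 157 and in Efnb2 247 to 243.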

How the data were processed

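Single-colour Agilent arrays were read for 19 mice, 1 array each, on 5 slides. The deposited intensity values are the median spot signals that the authors obtained with Agilent Feature Extraction (10.10.1.1 per the submitters' processing notes), neither background-corrected nor normalized. A deposited value table, on a log2 scale, holds the authors' normalized values after a correction for washing bath and serial labelling, batches that the labels used here do not give. It served as an alternative, and the median of its first column was 7.77.

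Control spots were left out, as were 1370 outlier spots over all arrays (59305 spots on each), signals were quantile-normalized and spots of a probe averaged. Dim probes, those well above background on fewer than 4 arrays, were dropped, and the brightest probe stood for each of 20686 genes. limma (3.58.1, R 4.3.3) fitted 4 group means with eBayes (15 residual and 2.99 prior degrees of freedom) and Benjamini-Hochberg adjustment over all genes. The fit was tested on simulated data. Mouse sums of marker signals are linear. The slide was taken as a batch and given as within-slide differences and as a block. Slide 3 had no wild-type E2 mouse, so its genotype difference averaged over treatments is that under E2+Pg alone. The number of arrays limits the precision. The limma p-values of the main fit set each difference against the spread between mice, pooled over the 4 groups and moderated by eBayes.

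The genes and lists were chosen with earlier results of these data known. Values in every mouse are given for genes called in any comparison, for the 3 largest rises and falls with an unadjusted p under 0.05 in each, and for pairs known from the mammary gland. Alternatives were Agilent's processed signal, the authors' value table, normexp (offset 50), 2 other filters on dim probes, every probe or their mean, the slide as a block, array weights, only the groups compared, outlier spots kept, and each mouse left out. Markers Tek, Adipoq, Plin1 and Flg were not tested.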

Additional observations from a re-analysis of the deposited data

Results flagged for a closer look

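In 6 of 100 sets of mice (25 genes in 4 groups) 1 mouse lay far from the others of its group, and chance alone flags about 1 in 20 such sets. Mouse L72 was low among the wild-type E2 mice for Efnb2 (9.67, against 11.48 to 11.79 in the other 3) and for Robo2 (5.31, against 7.21 to 7.39). Mouse L18 was high among the C451A-ERα E2+Pg mice for Robo2 (6.20, against 4.90 to 5.18). Mouse L4 was high among the C451A-ERα E2 mice for Slit2 (8.36, against 6.15 to 6.70). Mouse L58 of the same group was high for Efna1 (11.77, against 11.36 to 11.47), and mouse L44 of the wild-type E2+Pg group was high for Neo1 (9.78, against 9.33 to 9.36). Values are log2 normalized signals.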

How the results depend on the processing

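Of 1094 single-gene results recomputed under an alternative or without 1 mouse, 957 kept their direction and side of the threshold, 102 lost a call, 35 gained one and 0 reversed. With array weights, 9 guidance genes were called between genotypes under E2+Pg, 10 under E2 and 12 averaged, and 7 with E2+Pg against E2 in C451A-ERα LCs and 8 in wild-type LCs. The lowest weights were those of C451A-ERα mice L4 (0.24), L27 (0.28) and L18 (0.30), and the highest was that of C451A-ERα mouse L51 (3.11). This setting thus gave little weight to L4 and L18, which stood out in Slit2 and Robo2. Between genotypes on average, where 4 genes were called, the count was 1 with Agilent's processed signal, 2 with normexp, 1 with no filter on dim probes and 2 with the slide as a block. In wild-type LCs (3 called) it was 0 with the mean of the probes and 1 with the slide as a block. In C451A-ERα LCs (4 called) it was 2 with only the groups compared, Robo1 and, not among the 4, Plxna2. The authors' value table called 1 gene under E2, Sema3c. The median under E2 was -0.23 with the processed signal, and that under E2+Pg was 0.034 over the 42 genes well above background on all arrays.

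Leaving out 1 mouse gave 0 to 6 calls between genotypes under E2+Pg (6 without L18), 0 to 6 under E2 (6 without L72) and 0 to 7 averaged (0 without L67, L50 or L52, and 7 without L72). It gave 1 to 5 calls in C451A-ERα LCs (1 without L27, 2 without L61) and 0 to 3 in wild-type LCs (0 without L67, L62 or L52). In the interaction 0 genes were called in every run. The causes were not tested. Each slide held 1 mouse of every group, except slide 3, which had no wild-type E2 mouse, and the slide as a block matched the mice in this way. By replicate number no paired analysis was possible because these numbers only follow accession order. Dim signal limits Robo2 and Slit2, which were not well above background on every array.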
